A study of Mus musculus with 10 samples.

Results

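The HOX genes are the 4 chromosomal clusters of homeobox genes that give cells their position along the head-to-tail axis of the embryo, and here their RNA was followed in 5 papillary (PTC) and 5 anaplastic (ATC) mouse thyroid carcinomas. A member is any gene whose symbol reads Hoxa, Hoxb, Hoxc or Hoxd followed by a number and that has a probe set, the group of array probes read out as a single value, named with that symbol alone. This gave 37 HOX genes out of 19938 genes measured, and each member had 1 probe set. There were 10 members in cluster A (chromosome 6), 9 in cluster B (chromosome 11), 9 in cluster C (chromosome 15) and 9 in cluster D (chromosome 2). Hoxb8 had no probe set of its own and is not analysed here as a member.

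All 10 tumours carried the transgene TPOCreER and the allele BrafV600E on a mixed C57BL/6;129SvJae background. TPOCreER is a tamoxifen-inducible Cre recombinase under the thyroid peroxidase promoter, so that BrafV600E, an activated kinase of the MAPK pathway, is switched on in thyroid follicular cells and other cells of the piece need not carry it. The 5 ATC tumours were also p53 -/-, and tumour type and p53 genotype therefore changed together and cannot be told apart. Total RNA was labelled and hybridised to Affymetrix whole-transcript arrays, with 1 array per tumour. The labels give no age and call the tumours biological replicates without saying whether each came from its own mouse, so p-values measure only the spread between these tumours. With 5 arrays per type, their number limits how precise any value is. Values are log2 intensities, and every difference is ATC minus PTC. In these bulk samples, fewer cells of a type and less RNA per cell cannot be told apart.

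HOX genes encode homeodomain transcription factors. Within a cluster, the order of the genes along the chromosome follows the order of their expression in the embryo: low numbers act in the hindbrain and pharyngeal arches, middle numbers in the neck and thorax, and high numbers in the lower trunk, limbs and genital tract. Genes with the same number in different clusters are paralogues. Retinoic acid and CDX factors help to switch genes of the clusters on, Polycomb complexes keep them silent, and trithorax complexes with Kmt2a keep them active. PBX and MEIS proteins bind DNA together with HOX proteins. The thyroid forms from the pharynx, where Hoxa3 and its paralogues Hoxb3 and Hoxd3 act, and connective tissue cells keep a HOX code of their site of origin into adult life. Here numbers 1 to 4 are called anterior (11 members), 5 to 8 central (10 members) and 9 to 13 posterior (16 members).

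The clusters also carry microRNA genes, whose mature forms fall into families with the same seed. They are printed from RefSeq (GRCm38.p6) because the arrays had a probe set for each of these genes, with the seed, bases 2 to 8, in capitals. The mir-10 pair lies beside Hoxb4 and Hoxd4, and the mir-196 genes lie in clusters A, B and C. Each pair of sequences differs outside the seed.
mmu-miR-10a-5p (chr11:96317186-96317208, plus strand): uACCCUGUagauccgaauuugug
mmu-miR-10b-5p (chr2:74726074-74726096, plus strand): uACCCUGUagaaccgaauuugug
mmu-miR-196a-5p (Mir196a-1, chr11:96265187-96265208, plus strand; Mir196a-2, chr15:102973365-102973386, plus strand): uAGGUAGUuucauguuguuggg
mmu-miR-196b-5p (chr6:52230129-52230150, minus strand): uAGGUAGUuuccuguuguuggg

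The promoters shown next belong to members whose levels differed most between tumours of a type, described further on. Of the 10 members with a standard deviation (SD) of at least 0.3 between tumours of a type, 4 had an entry in the promoter table of RefSeq (GRCm38.p6). Each sequence is the 250 bases before the start of the transcript, 5′ to 3′ on the strand of the gene. Capitals in Hoxa2 mark a match to the paired PBX-HOX motif TGATNNAT on the opposite strand. Capitals in Hoxa5 and Hoxc4 mark the longest run of bases shared by any pair of the 4.
Hoxa2 (chr6:52164832-52165081, minus strand): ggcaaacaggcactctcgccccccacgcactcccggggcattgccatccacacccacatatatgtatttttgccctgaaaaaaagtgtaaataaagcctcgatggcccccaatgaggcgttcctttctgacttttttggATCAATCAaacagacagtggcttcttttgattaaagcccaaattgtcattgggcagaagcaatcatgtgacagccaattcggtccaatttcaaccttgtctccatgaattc
Hoxa5 (chr6:52204588-52204837, minus strand): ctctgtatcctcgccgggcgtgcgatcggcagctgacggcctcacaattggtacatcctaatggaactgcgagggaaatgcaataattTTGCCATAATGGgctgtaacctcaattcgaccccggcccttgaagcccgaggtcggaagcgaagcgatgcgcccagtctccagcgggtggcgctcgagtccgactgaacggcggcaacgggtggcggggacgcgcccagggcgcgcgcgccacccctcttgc
Hoxb4 (chr11:96318017-96318266, plus strand): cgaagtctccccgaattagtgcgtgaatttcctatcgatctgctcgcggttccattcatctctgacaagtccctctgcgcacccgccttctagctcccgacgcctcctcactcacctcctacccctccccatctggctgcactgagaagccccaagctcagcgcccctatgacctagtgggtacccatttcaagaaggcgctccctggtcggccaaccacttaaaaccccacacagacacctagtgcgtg
Hoxc4 (chr15:103034145-103034394, plus strand): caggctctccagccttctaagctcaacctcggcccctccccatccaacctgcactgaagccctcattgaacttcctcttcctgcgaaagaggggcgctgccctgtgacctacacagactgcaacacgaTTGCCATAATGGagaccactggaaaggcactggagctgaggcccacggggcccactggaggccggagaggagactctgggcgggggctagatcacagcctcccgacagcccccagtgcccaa

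The shared run of Hoxa5 and Hoxc4, TTGCCATAATGG, has 12 bases. Searched on both strands, it was found in 2 of 32851 promoter windows of this length (0.00609%), those of these members. The run was picked after the sequences were compared, and it is a description only. The PBX-HOX motif was present in 4 of 24 HOX promoter windows (16.7%), those of Hoxa2, Hoxb1, Hoxb8 and Hoxd11, and in 7.68% of all windows. The CDX motif TTTATNG was present in 2 of 24 HOX windows (8.33%) against 9.81% of all, and TATAAA in 4 of 24 (16.7%) against 12.4%. The DR5 retinoic acid response element was present in 0 of 24 HOX windows and in 0.0883% of all. CG pairs numbered 28 in the Hoxa5 window, 14 in Hoxb4, 8 in Hoxc4 and 6 in Hoxa2. The median was 12.5 CG pairs over the HOX windows (2 to 35) and 6 over all windows.

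The design asks how anaplastic tumours without p53 differ from papillary tumours with the same Braf allele. No HOX gene passed the test of limma: with the Benjamini-Hochberg adjustment over all genes and a threshold of 0.05, 0 of 37 were higher and 0 of 37 lower in ATC. Over all 19938 genes, 2297 (11.5%) were higher and 1937 (9.72%) lower at that threshold. At an unadjusted p under 0.05, 2 HOX genes were lower, Hoxb2 and Hoxb3, and 0 were higher, against 32.7% of all genes in both directions together. Differences ran from -0.39 (Hoxc4) to 0.47 (Hoxc8) with a median of 0.02, and the median over all genes was -0.02. The median absolute difference was 0.080 over the members and 0.140 over all genes.

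The intervals give the range of differences that these arrays do not exclude. The 95% interval of the difference lay within 1 log2 unit of 0, a 2-fold change, for 33 of 37 members (89.2%; 90.01% of all genes) and within 0.5 for 29 of 37 (78.4%; 67.3% of all genes). Of the other 4, the interval of Hoxb5 included a 2-fold higher level in ATC, and those of Hoxb6, Hoxc4 and Hoxc5 a 2-fold lower level. Groups did not overlap for 0 members in the higher direction (9.13% of all genes) and for 1 member, Hoxb3, in the lower direction (7.74% of all genes). Signs were split between clusters without a call: 8 of 10 members of cluster A were above 0 with a median of 0.07, and 3 of 9 in cluster B with a median of -0.04. In cluster C 5 of 9 were above 0 (median 0.08) and in cluster D 4 of 9 (median -0.03). By position, 3 of 11 anterior members, 6 of 10 central and 11 of 16 posterior members were above 0. Over all genes, 9210 of 19938 were above 0. Signs this close to 0 depend on scaling. The median over the members was 0.02 as deposited and 0.06 with quantile normalization once more or with arrays centred on the median.

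**Figure D1:**
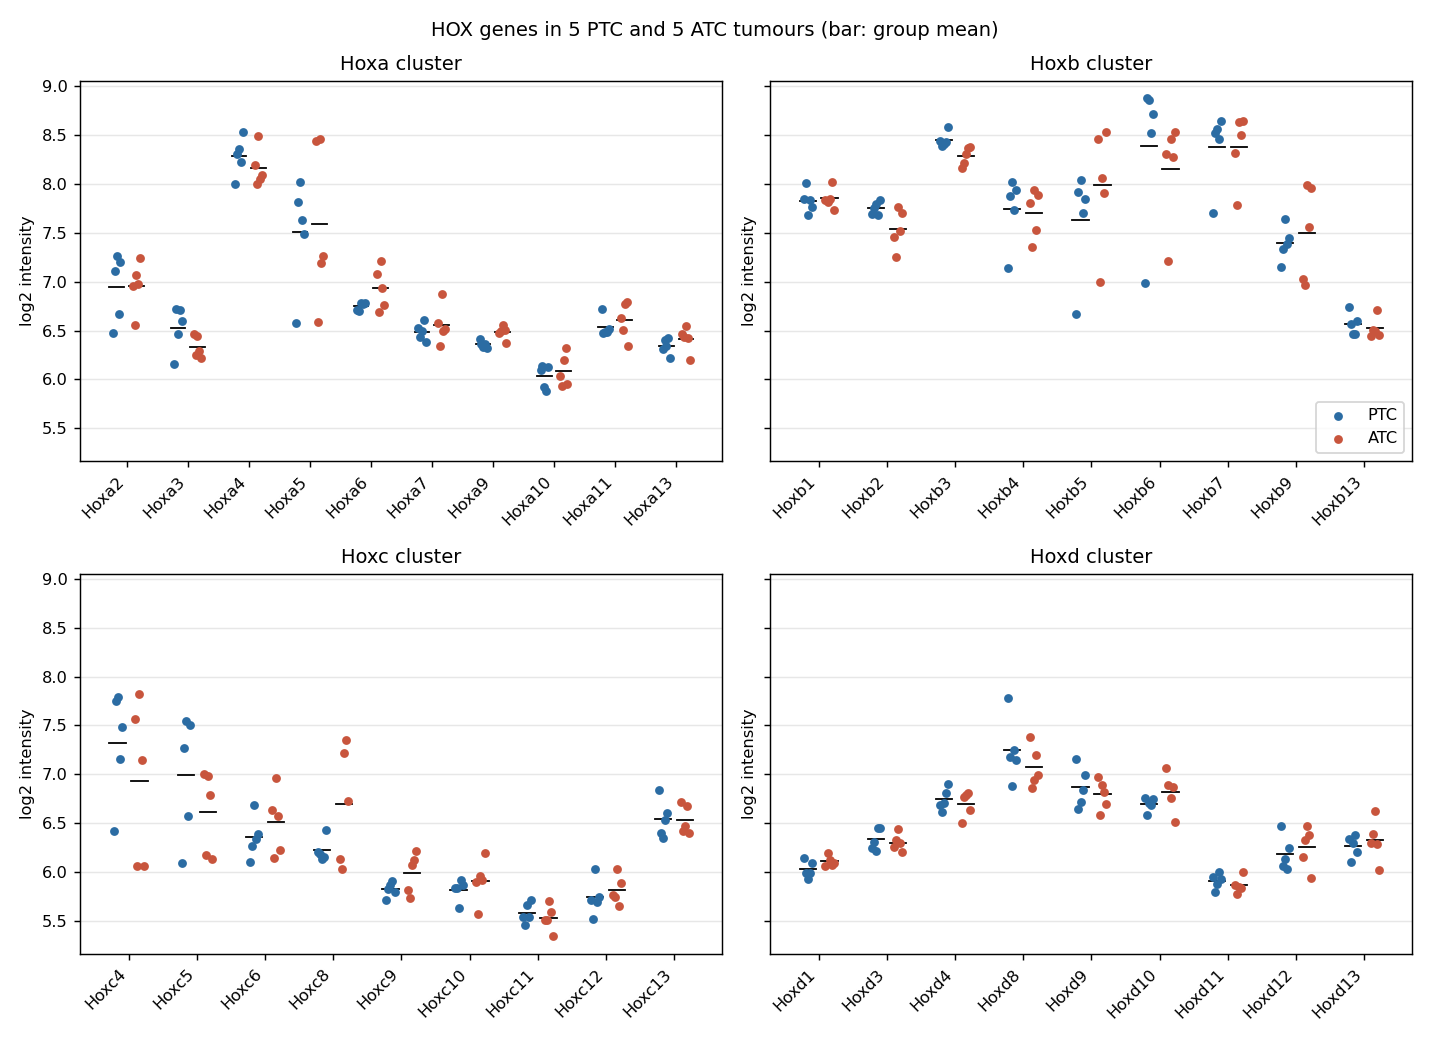
Log2 intensity of each HOX gene in each of the 5 PTC and 5 ATC tumours, by cluster and number, with 1 point per tumour and a bar at each group mean. The groups overlap for every member shown except Hoxb3, and single low points stand out in both groups for Hoxb5, Hoxb6 and Hoxb7.

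**Figure D2:**
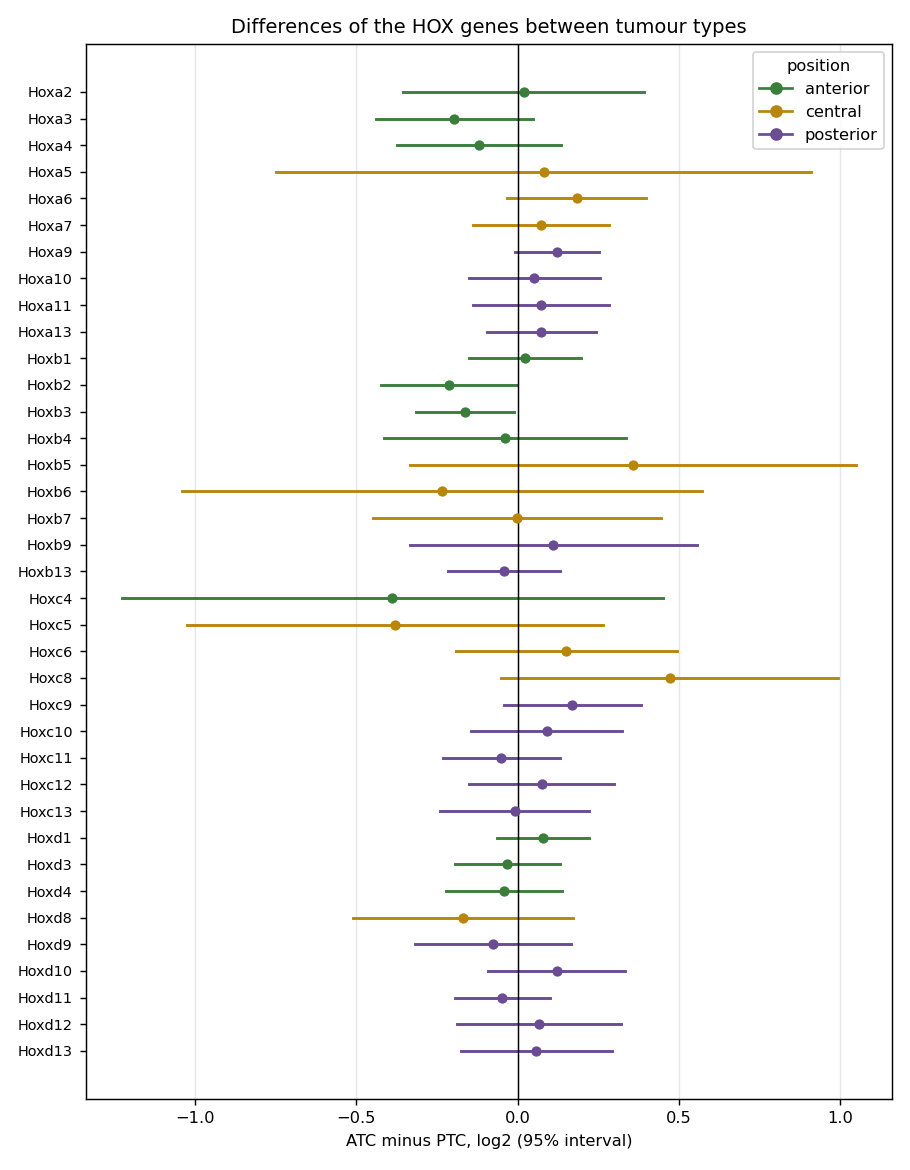
Difference ATC minus PTC of each HOX gene in log2 units, with its 95% interval from the limma fit, coloured by position class. Points run from -0.39 (Hoxc4) to 0.47 (Hoxc8), and the widest intervals belong to members numbered 4 to 6.

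The anterior genes shape the hindbrain and pharynx. Hoxb3, a paralogue of Hoxa3, was at 8.44, 8.39, 8.40, 8.43 and 8.58 in PTC tumours 1 to 5 and at 8.16, 8.21, 8.31, 8.37 and 8.37 in ATC tumours 1 to 5. Every ATC tumour was below every PTC tumour, but the nearest values of the groups, 8.37 and 8.39, almost touched. The difference was -0.16 (SE 0.07, 95% interval -0.32 to -0.01) and missed the threshold (adjusted p = 0.123). It had the smallest adjusted p of the members, and 1 array set the top of the PTC range. The level of its neighbour Hoxb2, a gene of the hindbrain, was 7.75 ± 0.06 (SD, n = 5) in PTC and 7.54 ± 0.21 in ATC. Its PTC values ran only from 7.69 to 7.83, whereas ATC values ran from 7.25 to 7.77 and overlapped them. The difference of Hoxb2 was -0.21 (SE 0.10, adjusted p = 0.148).

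Hoxa3, which thymus and parathyroid need to form, was at 6.53 ± 0.23 in PTC and 6.33 ± 0.12 in ATC. Its PTC values ran from 6.15 to 6.72 and its ATC values from 6.22 to 6.47, so that the ATC tumours lay inside the PTC range. The difference was -0.20 (adjusted p = 0.255), and without PTC tumour 1, the lowest PTC value, it was -0.29 and passed the threshold (adjusted p = 0.0450). Hoxd3 completes this paralogue group, and its difference was -0.03 (adjusted p = 0.819). Hoxb1, a gene of the hindbrain, differed by 0.02 and Hoxd1 by 0.08, with SDs between tumours of 0.11 and 0.07. Hoxa4 differed by -0.12, Hoxb4 by -0.04 and Hoxd4 by -0.04.

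Hoxc4 is the most anterior gene of cluster C and had the largest negative difference. It was at 6.42, 7.75, 7.79, 7.16 and 7.49 in PTC tumours 1 to 5 and at 7.57, 6.06, 7.82, 7.15 and 6.06 in ATC tumours 1 to 5. PTC 1, ATC 2 and ATC 5 were low, and the other 7 tumours of both types shared the range above 7. The difference of -0.39 (95% interval -1.23 to 0.45, adjusted p = 0.535) was smaller than the SDs of 0.56 in PTC and 0.83 in ATC. Hoxa2, which patterns the second pharyngeal arch, was at 6.94 ± 0.35 in PTC and 6.96 ± 0.26 in ATC, with PTC 1 and ATC 2 lowest in their groups.

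The central genes of the neck and thorax had the highest median SD between tumours of a type (0.40), though the anterior Hoxc4 had the largest single SD (0.71). Hoxb6 was at 6.98, 8.88, 8.86, 8.52 and 8.72 in PTC tumours 1 to 5 and at 8.31, 7.21, 8.46, 8.27 and 8.53 in ATC tumours 1 to 5. In each type a single tumour was far below the other 4: PTC 1 was 3.39-fold below the mean of the other PTC tumours, and ATC 2 was 2.28-fold below that of the other ATC tumours. The group difference was -0.23 (95% interval -1.04 to 0.57, adjusted p = 0.713). It was -0.59 without PTC 1 (adjusted p = 0.132), 0.003 without ATC 2 (adjusted p = 0.997) and -0.35 without both (adjusted p = 0.0517).

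Hoxb5, known from the lung and the neural crest of the gut, had the same low tumours. It was at 6.67, 7.92, 8.04, 7.70 and 7.85 in PTC tumours 1 to 5 and at 8.46, 7.001, 8.06, 7.90 and 8.53 in ATC tumours 1 to 5. PTC 1 was 2.31-fold and ATC 2 was 2.36-fold below the mean of the others of its type. The difference of 0.36 (95% interval -0.33 to 1.05, adjusted p = 0.483) became 0.12 without PTC 1 and 0.61 without ATC 2. Hoxb7 was at 7.70, 8.52, 8.56, 8.46 and 8.64 in PTC tumours 1 to 5 and at 8.32, 7.78, 8.64, 8.50 and 8.64 in ATC tumours 1 to 5. Its difference was -0.001 with an interval of -0.45 to 0.45, since the low tumours of the groups were nearly level.

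Probe set 10380629, which the annotation gives to Hoxb8 and Hoxb7 together and which is no member, was also lowest in PTC 1 (6.91; 7.43 to 8.23 in the other PTC tumours) and ATC 2 (6.60; 7.54 to 7.84 in the other ATC tumours). The low values therefore ran over neighbouring probe sets of cluster B. Hoxa5, a gene of lung and thyroid development chosen here after its values were seen, was at 6.58, 7.81, 8.02, 7.63 and 7.49 in PTC tumours 1 to 5. In ATC tumours 1 to 5 it was at 8.44, 6.59, 8.46, 7.20 and 7.26. PTC 1 and ATC 2 were lowest again, but ATC 1 and ATC 3 were above every PTC tumour, and the difference was 0.08 (95% interval -0.75 to 0.91).

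Hoxc5 was at 6.09, 7.27, 7.55, 6.57 and 7.50 in PTC tumours 1 to 5 and at 7.004, 6.18, 6.98, 6.78 and 6.14 in ATC tumours 1 to 5. PTC 1, ATC 2 and ATC 5 were low, as for Hoxc4, and PTC 4 lay between. The difference was -0.38 (95% interval -1.03 to 0.26, adjusted p = 0.416). With the mean of the skeletal muscle markers as a covariate it was -0.54 and passed the threshold (adjusted p = 0.0259). Hoxc6 was at 6.36 ± 0.21 in PTC and 6.51 ± 0.33 in ATC.

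Hoxc8, which patterns the thoracic skeleton, had the largest difference of all members. It was at 6.21, 6.19, 6.13, 6.15 and 6.43 in PTC tumours 1 to 5 and at 6.14, 6.03, 7.22, 7.35 and 6.72 in ATC tumours 1 to 5. The PTC tumours were close together, ATC 3, ATC 4 and ATC 5 were above all of them, and ATC 1 and ATC 2 were within or below the PTC range. The difference was 0.47 (SE 0.24, 95% interval -0.05 to 0.99, adjusted p = 0.198), with an SD of 0.12 in PTC and 0.61 in ATC. Without ATC 2 it was 0.64 (adjusted p = 0.0590). The other central members were Hoxa6 (0.18, adjusted p = 0.224), Hoxa7 (0.07) and Hoxd8 (-0.17). Hoxd8 was highest in PTC 1 (7.78; 6.88 to 7.24 in the other PTC tumours).

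The posterior genes are those of limbs, lower trunk and genital tract. All 16 had intervals within 1 log2 unit of 0, and differences ran from -0.08 (Hoxd9) to 0.17 (Hoxc9). Hoxa9, a gene of blood stem cells and leukaemia, had the smallest SD of all members, 0.05. It was at 6.36 ± 0.03 in PTC and 6.48 ± 0.07 in ATC, a difference of 0.12 (95% interval -0.01 to 0.25, adjusted p = 0.184). With quantile normalization applied once more it was 0.17 and passed (adjusted p = 0.0424). Hoxa13 and Hoxd13, which form the digits, differed by 0.07 and 0.06. Hoxa10 and Hoxa11, which pattern the uterus, differed by 0.05 and 0.07, the prostate gene Hoxb13 by -0.04 and the hair gene Hoxc13 by -0.01. Hoxc10 (0.09), Hoxc11 (-0.05), Hoxc12 (0.08), Hoxd10 (0.12), Hoxd11 (-0.05) and Hoxd12 (0.07) had adjusted p-values from 0.431 to 0.746. Hoxb9 was the variable member here, with PTC values from 7.15 to 7.64 and ATC values from 6.96 to 7.99 (difference 0.11).

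Variation between tumours of a type differed with position in the clusters. The SD within types had a median of 0.40 over central members, 0.15 over anterior and 0.15 over posterior members, and 0.16 over all genes. Of 37 members, 10 (27.0%) had an SD of at least 0.3, against 12.4% of all genes: Hoxa2, Hoxa5, Hoxb4, Hoxb5, Hoxb6, Hoxb7, Hoxb9, Hoxc4, Hoxc5 and Hoxc8. The SD minimum was chosen after the values were seen. Hoxc4 stood at the 98.6 percentile of all genes by SD, Hoxa5 at 98.5, Hoxb6 at 98.4, Hoxb5 at 97.6 and Hoxc5 at 97.0. No member of cluster D reached 0.3, and the largest SD there was 0.28 (Hoxd8). ATC had the larger SD for 23 of 37 members (62.2%), against 68.6% of all genes. Detection above background is not given in the sources used here. Mean intensities of posterior members were 5.56 to 7.45, those of central members 6.43 to 8.38, and how far dimness holds down the SD was not tested.

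**Figure D3:**
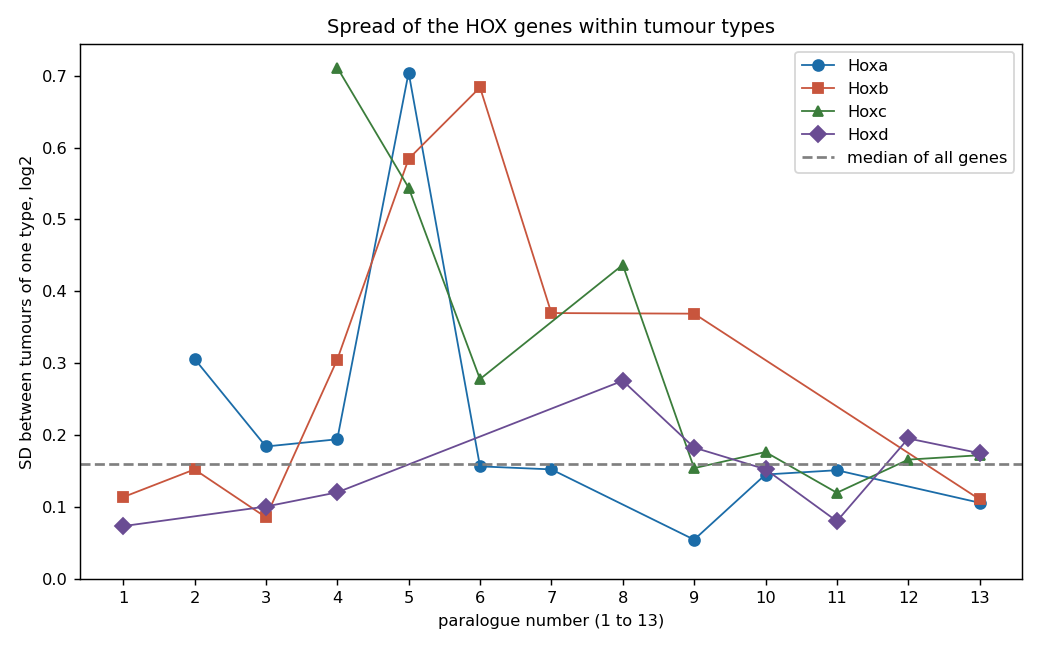
SD between tumours of the same type (log2, both types pooled) against the number of each HOX gene, with 1 line per cluster and a dashed line at the median of all genes (0.16). Clusters A, B and C peak at numbers 4 to 6, with 0.70 for Hoxa5, 0.68 for Hoxb6 and 0.71 for Hoxc4, while cluster D stays below 0.3.

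Most variable members were low in the same tumours, with 7 of 10 lowest of their type in both PTC 1 and ATC 2. PTC 1 was below the mean of the other PTC tumours and ATC 2 below that of the other ATC tumours for 10 of the 10 variable members (19 of 37 members, 51.4%; 26.8% of all genes), though Hoxc8 in PTC 1 was nearly level. The gap was 0.02 (Hoxc8) to 1.76 (Hoxb6) in PTC 1 and 0.44 (Hoxb4) to 1.25 (Hoxa5) in ATC 2. PTC 1 was the lowest PTC tumour for 6 of 10 central members (13 of 37 members; 20.6% of all genes). ATC 2 was the lowest ATC tumour for 9 of 10 central members (19 of 37 members, 51.4%; 15.2% of all genes). Both held at once for 10 of 37 members (27.0%), against 3.52% of all genes. These were Hoxa2, Hoxa4, Hoxa5, Hoxb4, Hoxb5, Hoxb6, Hoxb7, Hoxb9, Hoxc6 and Hoxc9. PTC 1 and ATC 2 were picked after the HOX values were seen, so these shares are a description and do not test the pattern. Both tumours also raised the SD by which variable members were picked: that of Hoxb6 was 0.68, and 0.15 without them. ATC 3 was the highest ATC tumour for 16 of 37 members (43.2%), against 24.0% of all genes. Cluster D went another way in PTC 1, which was the highest PTC tumour for 5 of its 9 members and the lowest for 0. Over all genes PTC 1 was the highest for 23.3% and the lowest for 20.6%. This was not particular to cluster D: PTC 1 was the highest for 7 of 16 posterior members over all clusters and the lowest for 2. Without PTC 1 and ATC 2, 5 of the 10 variable members still had an SD of at least 0.3, and the median SD of central members was 0.21 (0.16 over all genes).

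**Figure D4:**
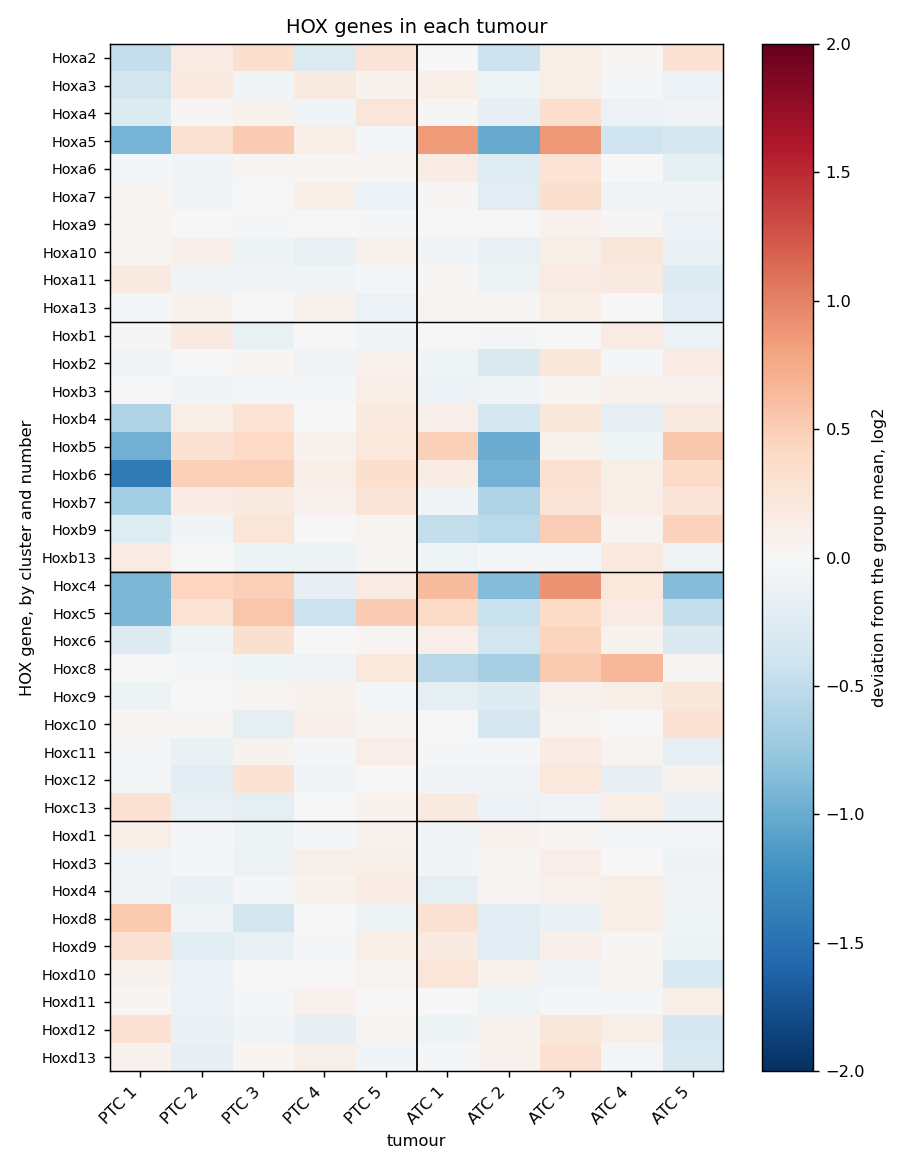
Deviation of each HOX gene in each tumour from the mean of its tumour type (log2), with genes from top to bottom by cluster and number and tumours from left to right. PTC 1 and ATC 2 are low from Hoxa2 to Hoxa5, Hoxb4 to Hoxb9 and Hoxc4 to Hoxc6. Cluster D has a mean deviation of 0.14 in PTC 1 and -0.01 in ATC 2. ATC 2 is the lowest ATC tumour for 3 of the 9 cluster D members (15.2% of all genes).

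The variable members varied together within and between clusters, while over all 666 pairs of members 447 correlations were above 0. Over the 10 tumours, after each type's mean was removed, the 45 pairs of variable members had correlations of 0.13 to 0.97 with a median of 0.68, against 0.20 over all 666 pairs of members. The median was 0.82 for the 14 pairs within a cluster and 0.67 for the 31 pairs between clusters, which lie on different chromosomes. Hoxb6 and Hoxb7 had the highest value, 0.97, and Hoxa5 and Hoxc4 stood at 0.89. These are descriptions over 10 arrays that the genes share, and members were picked by their spread. PTC 1 and ATC 2 raised that spread and were below the mean of the others of their type for all 10 variable members. Such a choice by itself favours positive correlations, and correlations without both tumours were not computed.

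Markers of neighbouring tissue differed between the same tumours, though not in step with the HOX genes in every one. The 4 parathyroid markers measured (Pth, Casr, Chga and Gata3) had a mean level of 6.16 to 9.64 in PTC and 6.01 to 8.67 in ATC, and PTC 1 and ATC 2 were the highest of their types. Pth, the parathyroid hormone gene, was at 12.66 in PTC 1 and 11.97 in ATC 2, and at 4.38 in PTC 5. The 10 skeletal muscle markers had a mean level of 6.80 to 8.83 in PTC and 7.03 to 8.35 in ATC, with deviations from the type's mean of 0.97 in PTC 1 and 0.66 in ATC 2. ATC 5 was higher than ATC 2 in muscle markers (0.76), and its central HOX genes lay at -0.02 on average. Single central genes in ATC 5 ran from -0.48 (Hoxc5) to 0.54 (Hoxb5), and the anterior Hoxc4 stood at -0.87. PTC 4 was also high in both lists (1.14 for parathyroid and 0.96 for muscle). Its central HOX genes lay at 0.003 from the mean of PTC on average, from -0.42 (Hoxc5) to 0.13 (Hoxb6). The 8 epithelial and 11 thyrocyte markers were high in ATC 2 (0.92 and 0.81) and stood at -0.03 and 0.36 in PTC 1. The 10 fibroblast markers stood at 0.17 in PTC 1 and 0.09 in ATC 2. The part of other cells in the HOX values was not tested. Against the labelled tissue, the thyrocyte markers had a mean level of 7.77 to 8.96 in PTC and 6.64 to 8.16 in ATC. Of these 11 markers, 3 were lower in ATC (9.72% of all genes). Tg, the thyroglobulin gene, was at 11.28 to 12.88 in PTC, but at 7.17 in ATC 1 and 6.84 in ATC 3, below those arrays' medians of 7.27 and 7.25.

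**Figure D5:**
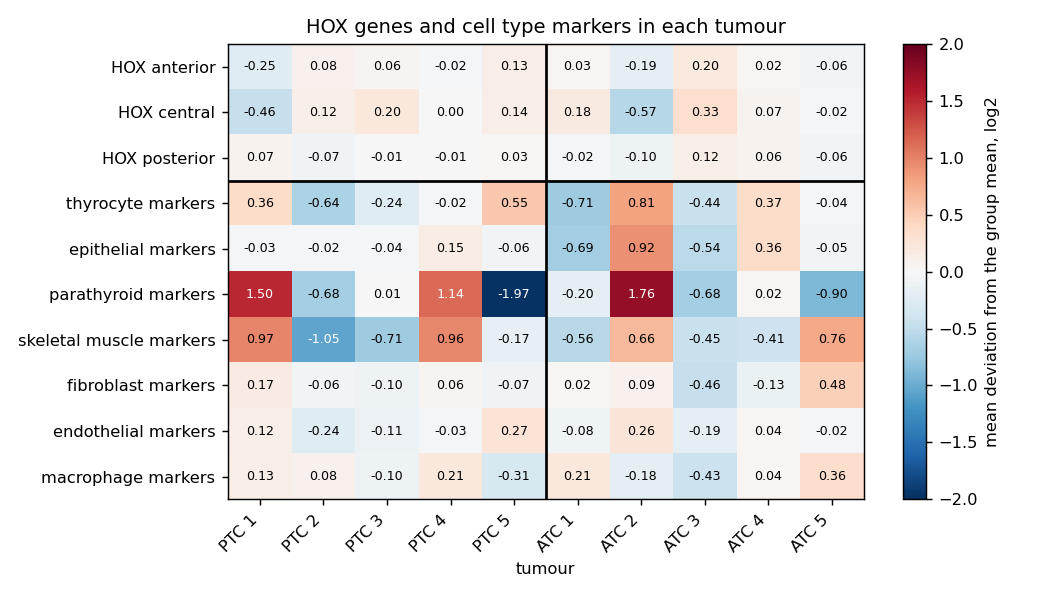
Mean deviation from the mean of the tumour type (log2) of the HOX position classes and of 7 lists of cell type markers in each tumour. Central HOX genes are lowest in PTC 1 (-0.46) and ATC 2 (-0.57), the tumours in which parathyroid markers are highest (1.50 and 1.76).

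By Pearson correlation over the 10 tumours, centred on each type's mean, the genes most like the 3 members with the smallest p were as follows. Ppp1r37 (0.97), Irs2 (0.96), Wdr83 (0.95), Rhbdf1 (0.95) and Arhgef25 (0.94) were most like Hoxb3. Kirrel (0.97), Parp10 (0.97), 1700017B05Rik (0.97), Fubp3 (0.96) and Nlgn2 (0.96) were most like Hoxb2. Foxj3 (0.99), Rpl32l (0.98), 4931415C17Rik (0.97), Izumo2 (0.97) and Olfr541 (0.97) were most like Hoxa9. They are the highest of all genes by choice, and with 10 arrays such values describe these tumours only.

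Noncoding RNAs of the clusters showed no call either. By limma, 0 of 9 measured passed in each direction, where 11.5% of all genes were higher and 9.72% lower. The adjusted p of limma ran from 0.193 to 0.898, 0 had an unadjusted p under 0.05, and the median difference was -0.05. Mir10a and Mir10b, whose 5p forms share the seed shown in capitals, differed by -0.08 (3.83 ± 0.27 in PTC, 3.75 ± 0.28 in ATC) and 0.04. Of the mir-196 family, Mir196a-1 differed by -0.12, Mir196a-2 by 0.23 (5.27 ± 0.11 and 5.495 ± 0.24) and Mir196b by 0.03. Probe sets of microRNA genes on these arrays need not read the mature form. Mir615 (-0.11), Hottip (-0.05), Hoxaas2 (-0.14) and Hoxd3os1 (0.04) complete the list.

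Of 16 genes measured on the flanks of the clusters, 1 was higher and 2 lower in ATC, with a median of -0.01. Over the whole fit 11.5% of genes were higher and 9.72% lower, so the flanks do not stand out by their count. Hibadh, a mitochondrial enzyme of valine breakdown next to cluster A, fell by 0.69 (SE 0.14, adjusted p = 0.00443) from 9.31 ± 0.21 to 8.615 ± 0.26, and the groups did not overlap. Skap1, a T cell adaptor next to cluster B, fell by 0.66 (adjusted p = 0.0123), and the call ended with the parathyroid markers as a covariate (-0.59, adjusted p = 0.0566). In the same tumours 3 of 7 T cell markers were lower in ATC (9.72% of all genes), and their part in the fall of Skap1 was not tested. Mtx2, a mitochondrial import protein next to cluster D, was higher by 0.33 (adjusted p = 0.0262). That call ended without PTC 1, 3 or 4 or ATC 3 or 5 (0.27 to 0.33, adjusted p 0.0510 to 0.0644).

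Of 8 HOX cofactors of the TALE homeodomain class measured, 0 were higher and 1 lower (11.5% and 9.72% of all genes), with a median difference of -0.01. Meis3 fell by 0.70 (SE 0.10, adjusted p = 0.000627): it was at 8.06 to 8.51 in PTC and 7.42 to 7.77 in ATC, with no overlap. Meis1, a partner of HOX proteins in leukaemia, differed by 0.20 (adjusted p = 0.591) between PTC at 8.08 ± 0.25 and ATC at 8.28 ± 0.54.

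Of 26 chromatin regulators that silence or keep open the clusters, 4 were higher, 2 lower and 20 did not pass, with a median of 0.04. This is near the background of 11.5% higher and 9.72% lower. Ezh2, the histone methyltransferase of Polycomb complex PRC2, rose by 0.62 (SE 0.14, adjusted p = 0.00983), with PTC at 9.32 to 9.46 and all ATC tumours above them at 9.54 to 10.48. Its partner Suz12 rose by 0.38 (adjusted p = 0.0149), and the call ended without PTC 1 and ATC 2 together (0.38, adjusted p = 0.0544). Ezh1, the other methyltransferase of that complex, fell by 0.51 (adjusted p = 0.0111). Rnf2, the ubiquitin ligase of the complex PRC1, rose by 0.68 (adjusted p = 0.00514), and its paralogue Ring1 fell by 0.26 (adjusted p = 0.0239). Psip1, a chromatin partner of trithorax complexes, rose by 0.29 (adjusted p = 0.0338). The call on Ring1 ended without PTC 1 or 5 or ATC 1 or 2 (adjusted p 0.0516 to 0.0602). That on Psip1 ended without PTC 1, 4 or 5 or ATC 1, 2 or 3 (adjusted p 0.0549 to 0.0811). Bmi1 differed by -0.003 (adjusted p = 0.992) and Kmt2a by 0.25 (adjusted p = 0.199).

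Of 17 genes of retinoic acid and CDX, inputs to the clusters, 3 were higher, 3 lower and 11 did not pass (11.5% and 9.72% of all genes). Their median was 0.05. All 6 calls were of retinoic acid genes, while Cdx1, Cdx2 and Cdx4 differed by 0.07, -0.02 and 0.08 (adjusted p 0.612 to 0.915). Crabp1, a cytoplasmic retinoic acid binding protein, rose by 2.70 (SE 0.40, adjusted p = 0.000925), from 8.52 to 10.57 in PTC to 11.56 to 13.37 in ATC. Crabp2, which carries retinoic acid to its receptor, rose by 1.91 (SE 0.31, adjusted p = 0.0015), and its groups did not overlap. Cyp26a1, which breaks down retinoic acid, fell by 0.61 (adjusted p = 0.00104), and all ATC tumours (6.12 to 6.27) were below all PTC tumours (6.57 to 7.05). Aldh1a2, which makes retinoic acid, fell by 1.39 (adjusted p = 0.0147). That call ended with the parathyroid markers as a covariate (-1.24, adjusted p = 0.0652). Aldh1a1 fell by 1.20 (adjusted p = 0.0394) and the receptor Rara rose by 0.35 (adjusted p = 0.0430). The call on Aldh1a1 ended without PTC 2, 3, 4 or 5 or ATC 1 or 3 (adjusted p 0.0579 to 0.0902). That on Rara ended without PTC 1 to 4 or ATC 3 to 5 (adjusted p 0.0546 to 0.103).

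Other homeobox genes of the head and pharynx, set beside the HOX clusters, had 3 of 27 higher and 1 lower (11.5% and 9.72% of all genes), with a median of -0.02. Prrx1, a homeobox gene of mesenchyme, rose by 1.52 (adjusted p = 0.000374), with PTC at 8.89 to 9.32 and ATC at 9.86 to 10.96. Hhex, which the thyroid bud needs, fell by 1.25 (adjusted p = 0.000628), with PTC at 10.51 to 10.95 and ATC at 9.09 to 10.05. Six4 rose by 0.54 (adjusted p = 0.0139). Dlx2 rose by 0.29 (adjusted p = 0.0469), and this call ended when any tumour but PTC 5 was left out (adjusted p 0.0523 to 0.115). Marker lists also differed between the tumour types: 10 of 11 macrophage markers were higher in ATC (median 1.35), against 11.5% of all genes. Lower in ATC were 6 of 8 epithelial (median -1.84), 5 of 10 fibroblast (median -0.52) and 3 of 11 thyrocyte markers (median -0.46). Of all genes, 9.72% were lower. The part of these markers in the differences of the retinoic acid genes, Prrx1 and Hhex was not tested.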

How the data were processed

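RNA of 5 PTC and 5 ATC tumours was measured on 1 Affymetrix array each. The deposited table holds 35556 probe sets, read as log2 intensities from their range (2.79 to 14.15; array medians 7.25 to 7.34) and tested as the authors deposited them. Affymetrix Power Tools and limma are named, with no role or version, per the submitters' processing notes. The background correction, normalization, scale and assembly were not given in the sources used here.

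Groups and replicate numbers came from the sample titles. Probe sets with 1 symbol in the platform annotation (21789; 1621 had several and 12146 none) named genes, each gene by its probe set with the highest mean, which left 19938 genes. The difference between ATC and PTC came from limma 3.58.1 (lmFit and eBayes, R 4.3.3) without covariates, with Benjamini-Hochberg adjustment over all genes and 95% intervals from the fit. The fit was tested on simulated data. Tables and figures used Python 3.11.15, numpy 2.4.6, pandas 2.3.3 and matplotlib 3.10.9. Values of every tumour are given for members past the threshold, with separate groups, with the 5 largest absolute differences or the 3 highest means. Of each list, up to 6 members past the threshold are named, with Meis1, Ezh2, Kmt2a and Bmi1 in any case, and for the 3 members with the smallest p the 5 most correlated genes. Genes named beyond this rule were picked after seeing values. The members and lists were chosen with earlier results of these data known.

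The alternatives tried were averaging the probe sets of a gene, fitting every probe set, leaving out genes with means under 6 or 7, a replicate block, quantile normalization once more, median centring, array weights, a robust variance trend, covariates for parathyroid and skeletal muscle markers, an adjusted p under 0.01 and each array left out. A fit without PTC 1 and ATC 2 was added after seeing the data. The level of the deleted gene is not analysed here, so the genotype labels were not checked.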

Additional observations from a re-analysis of the deposited data

Results flagged for a closer look

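In 74 groups of 5 tumours (37 HOX genes in each type), 8 values lay farther from the nearest other tumour than Dixon's critical value allows. That value is 0.71 of the group's range, and chance gives about 1 in 20 groups if they are independent. These groups share the same 10 arrays, and neighbouring HOX genes varied together. The share over all genes was not counted, so no excess in HOX genes is read from the 8 values. PTC 1 was low for Hoxb5 (6.67; 7.70 to 8.04 in the other PTC tumours), Hoxb6 (6.98; 8.52 to 8.88) and Hoxb7 (7.70; 8.46 to 8.64), which are neighbours in cluster B. ATC 2 was low for Hoxb6 (7.21; 8.27 to 8.53 in the other ATC tumours). PTC 1 was high for Hoxa11 (6.72; 6.48 to 6.52). PTC 5 was high for Hoxb3 (8.58; 8.39 to 8.44) and for Hoxc8 (6.43; 6.13 to 6.21). ATC 4 was high for Hoxb13 (6.71; 6.44 to 6.51).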

How the results depend on the processing

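The counts of 0 HOX genes higher and 0 lower held with both filters on dim genes, median centring and the variance trend. An adjusted p under 0.01 is a stricter cut on the same fit, so there the counts could only stay at 0. Each HOX gene had 1 probe set, so averaging or fitting all probe sets could not change its difference. Quantile normalization once more gave 1 higher (Hoxa9). Array weights gave 1 lower (Hoxb2, -0.28, adjusted p = 0.0377), as did the skeletal muscle covariate (1, Hoxc5) and the parathyroid covariate (1, Hoxb2, -0.32, adjusted p = 0.0365). Leaving out each array gave 0 to 1 lower and 0 higher; the 1 was Hoxa3 without PTC 1. The cause was not tested. Without PTC 1 and ATC 2 together the counts were 0 and 0. Of all genes, 4234 passed, 2191 at an adjusted p under 0.01, and 3253 to 4128 with an array left out.

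With the replicate number as a block, 0 HOX genes were higher, 0 were lower and 3762 genes passed; the calls on Mtx2, Dlx2, Psip1 and Ring1 ended. Deviations of same-numbered tumours correlated at -0.09 to 0.12, and those of tumours with unlike numbers at -0.11 to 0.13. The labels do not say whether a number stands for a shared litter or day, and these values cannot decide it.

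Of 784 values of single HOX genes under 22 settings, 57 had another sign, in 17 genes, none of them past the threshold in either fit, and 5 passed the threshold. Among the other genes named, the parathyroid covariate ended the calls on Skap1 (-0.59), Mtx2 (0.23), Aldh1a2 (-1.24), Aldh1a1 (-1.28), Rara (0.25), Dlx2 (0.19) and Psip1 (0.30), of which Aldh1a1 and Psip1 differed by no less than without it, and the skeletal muscle covariate those on Aldh1a1 (-1.16), Rara (0.36), Dlx2 (0.26) and Psip1 (0.27). Median centring ended the call on Ring1, quantile normalization that on Psip1, the variance trend that on Aldh1a1, and leaving out PTC 1 and ATC 2 together those on Suz12, Dlx2, Psip1 and Ring1. Quantile normalization moved the median of all genes by 0.02 and centring by 0.04. The filters kept 32 members at a mean of at least 6 and 12 at 7. No detection call was used, and with 5 tumours per type the intervals of Hoxb5, Hoxb6, Hoxc4 and Hoxc5 do not exclude a 2-fold difference in 1 direction.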
